A study of Homo sapiens with 18 samples.

Results

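The cornified envelope genes described here are 9 genes, IVL, SPRR1A, SPRR1B, SPRR2A, SPRR2D, SPRR3, TGM1, CNFN and KRTDAP, among the 40916 gene symbols counted in each of 18 RNA-seq libraries. They were chosen by name: a row belonged to the set when its symbol equalled 1 of these 9, and all 9 were present in every table. The libraries came from MCF10A, HCT116 and mixed cultures, each either without irradiation (NIR) or after a dose of 10 Gy (IR), with 3 biological replicates in each of the 6 groups. MCF10A is a non-transformed human mammary epithelial line, here with a histone H2B-GFP reporter in every MCF10A group, and it was grown with horse serum, insulin, EGF, cholera toxin and hydrocortisone. HCT116 is a colorectal carcinoma line, here without a reporter, described as p53-null in all its groups and grown in McCoy's 5A medium with fetal bovine serum. The p53 status was not checked here. The mixed cultures were described as holding the lines in equal parts, and their medium is not stated. The titles place the harvest at day 2, while the series design places it at 72 h after irradiation. A comparison of the lines is therefore also one of tissue of origin, medium, reporter and described p53 status, which cannot be told apart.

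The cornified envelope is the cross-linked protein shell that replaces the plasma membrane of a keratinocyte at the end of its differentiation in stratified epithelium. Soluble precursors such as involucrin (IVL) and the small proline-rich proteins (the SPRR genes) accumulate first, and transglutaminases, TGM1 above all, then join them by bonds between glutamine and lysine side chains. Many of the precursors are encoded side by side on chromosome 1 in the epidermal differentiation complex. Neither mammary nor colonic epithelium forms such a shell, and cultured basal-type mammary cells are known to express some of its genes.

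The 9 genes lie on 3 chromosomes (GRCh38, RefSeq gene positions). IVL (chr1:152908546-152911886), SPRR1A (chr1:152984081-152985814), SPRR3 (chr1:153001749-153003856), SPRR1B (chr1:153031203-153032900), SPRR2D (chr1:153039732-153041120) and SPRR2A (chr1:153056120-153057512) are neighbours in the epidermal differentiation complex. SPRR2D and SPRR2A are on the minus strand and the other 4 on the plus strand. TGM1 lies at chr14:24249114-24263177, and CNFN (chr19:42387019-42390297) and KRTDAP (chr19:35487324-35490464) lie on chromosome 19, all 3 on the minus strand. None of the 9 overlaps another gene of the GENCODE v29 annotation.

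The 250 bases before the transcription start were read for 7 of the 9 genes from RefSeq (GRCh38.p14). Those of IVL, SPRR1B, SPRR2A, KRTDAP and CNFN are shown because they span the expression patterns described below. Capitals mark matches to the AP-1 letters TGANTCA, which read the same on both strands, and to the TATA box letters TATAAA, searched on the strand of the gene only. The 2 kinds of match do not overlap each other.
IVL promoter, chr1:152908296-152908545, plus strand: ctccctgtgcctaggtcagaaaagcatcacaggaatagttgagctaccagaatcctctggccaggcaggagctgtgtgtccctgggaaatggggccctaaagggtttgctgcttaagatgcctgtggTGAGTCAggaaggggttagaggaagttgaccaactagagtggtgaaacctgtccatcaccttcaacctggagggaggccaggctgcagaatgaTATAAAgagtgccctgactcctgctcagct
SPRR1B promoter, chr1:153030953-153031202, plus strand: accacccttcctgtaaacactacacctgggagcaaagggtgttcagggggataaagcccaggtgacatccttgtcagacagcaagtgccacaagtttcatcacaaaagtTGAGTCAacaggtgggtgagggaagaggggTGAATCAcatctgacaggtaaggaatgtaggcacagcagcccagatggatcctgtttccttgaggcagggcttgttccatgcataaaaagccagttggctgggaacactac
SPRR2A promoter, chr1:153057513-153057762, minus strand: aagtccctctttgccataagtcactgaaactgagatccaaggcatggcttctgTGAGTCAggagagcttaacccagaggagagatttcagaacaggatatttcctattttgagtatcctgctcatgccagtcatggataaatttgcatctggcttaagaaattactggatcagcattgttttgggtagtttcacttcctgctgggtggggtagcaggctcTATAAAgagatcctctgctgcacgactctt
KRTDAP promoter, chr19:35490465-35490714, minus strand: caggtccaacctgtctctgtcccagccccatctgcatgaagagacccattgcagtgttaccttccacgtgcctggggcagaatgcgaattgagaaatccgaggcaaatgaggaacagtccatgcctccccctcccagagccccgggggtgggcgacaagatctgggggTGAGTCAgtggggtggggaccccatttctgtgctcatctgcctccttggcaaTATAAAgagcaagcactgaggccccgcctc
CNFN promoter, chr19:42390298-42390547, minus strand: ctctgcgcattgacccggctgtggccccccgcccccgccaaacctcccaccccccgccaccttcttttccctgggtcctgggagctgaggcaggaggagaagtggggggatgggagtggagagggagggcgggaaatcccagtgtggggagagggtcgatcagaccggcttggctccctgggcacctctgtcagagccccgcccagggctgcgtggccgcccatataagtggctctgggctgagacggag

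AP-1 is the family of Fos and Jun transcription factor dimers, known for its part in the transcription of keratinocyte differentiation genes. The AP-1 letters were found in 6 of the 7 member promoters (IVL, SPRR1A, SPRR1B, SPRR2A, SPRR3 and KRTDAP) and in 6.57% of 35116 RefSeq promoter windows of the same length. SPRR1B held 2 matches, TGAGTCA at positions -141 to -135 and TGAATCA at -111 to -105 from the start. TATAAA stood at -30 to -25 in IVL, SPRR2A and KRTDAP and at -29 to -24 in SPRR1A and SPRR3, against 6.8% of all windows. The letters TTGCNNAA of C/EBP factors and AACCNGTT of Grainyhead-like factors, each searched on both strands, were in 0 of the 7, against 9.05% and 1.49% of all windows. CNFN held none of the 4 motifs and had the highest GC content of the 7, 68.4%, where the others lay between 40.4% (SPRR3) and 58.8% (KRTDAP) and the median of all windows was 58.0%. These matches describe letters, not binding. KRTDAP, which had no count in MCF10A monocultures, and IVL, whose level was highest in them, shared both motifs. The motifs were chosen after the promoters had been seen.

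**Figure D1:**
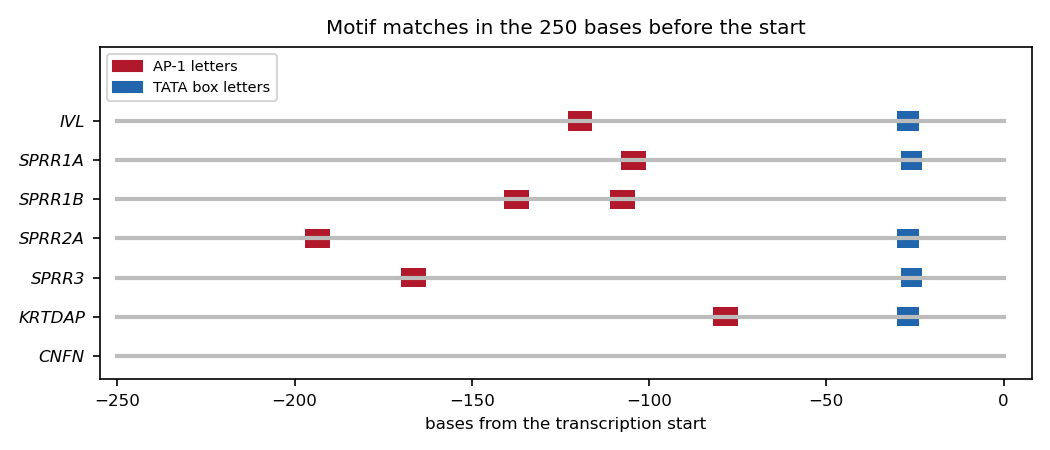
Positions of AP-1 letters (red) and TATA box letters (blue) in the 250 bases before the transcription start of 7 cornified envelope genes; the x axis gives bases from the start. All genes but CNFN have an AP-1 match, and the TATA box matches lie between -30 and -24.

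The SPRR genes are close copies of each other, which bears on how reads can be assigned. The coding sequences of SPRR2A and SPRR2D, from GENCODE v29 transcripts, are both 219 bases long and differ at 4 bases (98.2% identical), which are in capitals.
SPRR2A coding sequence: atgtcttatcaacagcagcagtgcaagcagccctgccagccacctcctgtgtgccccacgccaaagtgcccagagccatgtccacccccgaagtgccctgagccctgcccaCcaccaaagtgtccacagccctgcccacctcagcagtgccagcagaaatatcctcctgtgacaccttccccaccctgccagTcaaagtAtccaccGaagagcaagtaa
SPRR2D coding sequence: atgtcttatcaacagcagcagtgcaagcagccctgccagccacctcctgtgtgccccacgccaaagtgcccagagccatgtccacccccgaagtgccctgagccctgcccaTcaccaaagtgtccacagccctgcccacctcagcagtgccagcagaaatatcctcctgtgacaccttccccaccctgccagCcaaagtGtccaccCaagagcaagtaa
Those of SPRR1A and SPRR1B are both 270 bases long and differ at 10 bases (96.3% identical), again in capitals. They are shown because their counts differed widely in spite of this identity.
SPRR1A coding sequence: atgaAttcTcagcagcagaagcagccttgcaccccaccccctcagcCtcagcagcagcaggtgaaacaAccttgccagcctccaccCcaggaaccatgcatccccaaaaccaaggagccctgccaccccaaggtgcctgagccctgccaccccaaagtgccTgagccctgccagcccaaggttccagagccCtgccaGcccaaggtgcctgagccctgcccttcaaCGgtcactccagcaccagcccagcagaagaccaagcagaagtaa
SPRR1B coding sequence: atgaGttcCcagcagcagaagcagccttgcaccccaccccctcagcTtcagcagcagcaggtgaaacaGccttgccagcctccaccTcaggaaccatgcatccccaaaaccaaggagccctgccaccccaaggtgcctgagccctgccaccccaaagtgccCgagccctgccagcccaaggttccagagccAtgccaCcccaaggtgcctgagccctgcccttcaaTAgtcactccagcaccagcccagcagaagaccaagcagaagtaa
Words of 150 bases, the length of a read, were compared across all transcripts. In SPRR2A 59 of 560 such words (10.5%) also occurred in SPRR2B or SPRR2E, and in the other 8 genes none was shared. The counts of SPRR2A are therefore uncertain to that extent, while SPRR2D, SPRR1A and SPRR1B are told apart by full-length reads.

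The libraries held 25.7 to 40.8 M counts (M is 1e+06), and 10180 of the 40916 symbols were at 0 throughout. Levels are given as CPM, that is, counts scaled to a library total of 1e+06. Of the values from 1 to 10, 68.3% were even, so lower bounds of folds are also given with counts halved. A floor of 3 counts over a group stands for its detection limit below. It came to 0.0275 to 0.0338 CPM and covers counting error only. Without irradiation all 10 basal mammary markers were called lower in HCT116 than in MCF10A, and all 6 intestinal markers tested, of 10, higher. Of all genes tested 38.7% were higher and 36.1% lower. In non-irradiated MCF10A 5 intestinal markers had no count, so a filter on low counts favoured a higher call. Basal sums were 12700 to 13400 CPM in MCF10A and 1030 to 1200 in HCT116. Intestinal sums were 9.36 to 11.2 and 1050 to 1340 CPM. Luminal mammary markers split, 3 higher and 3 lower. The basal and intestinal sums thus went with the labels of the lines. Whether the replicates came from separate cultures is described only as biological, so p-values measure the spread between these libraries.

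**Figure D2:**
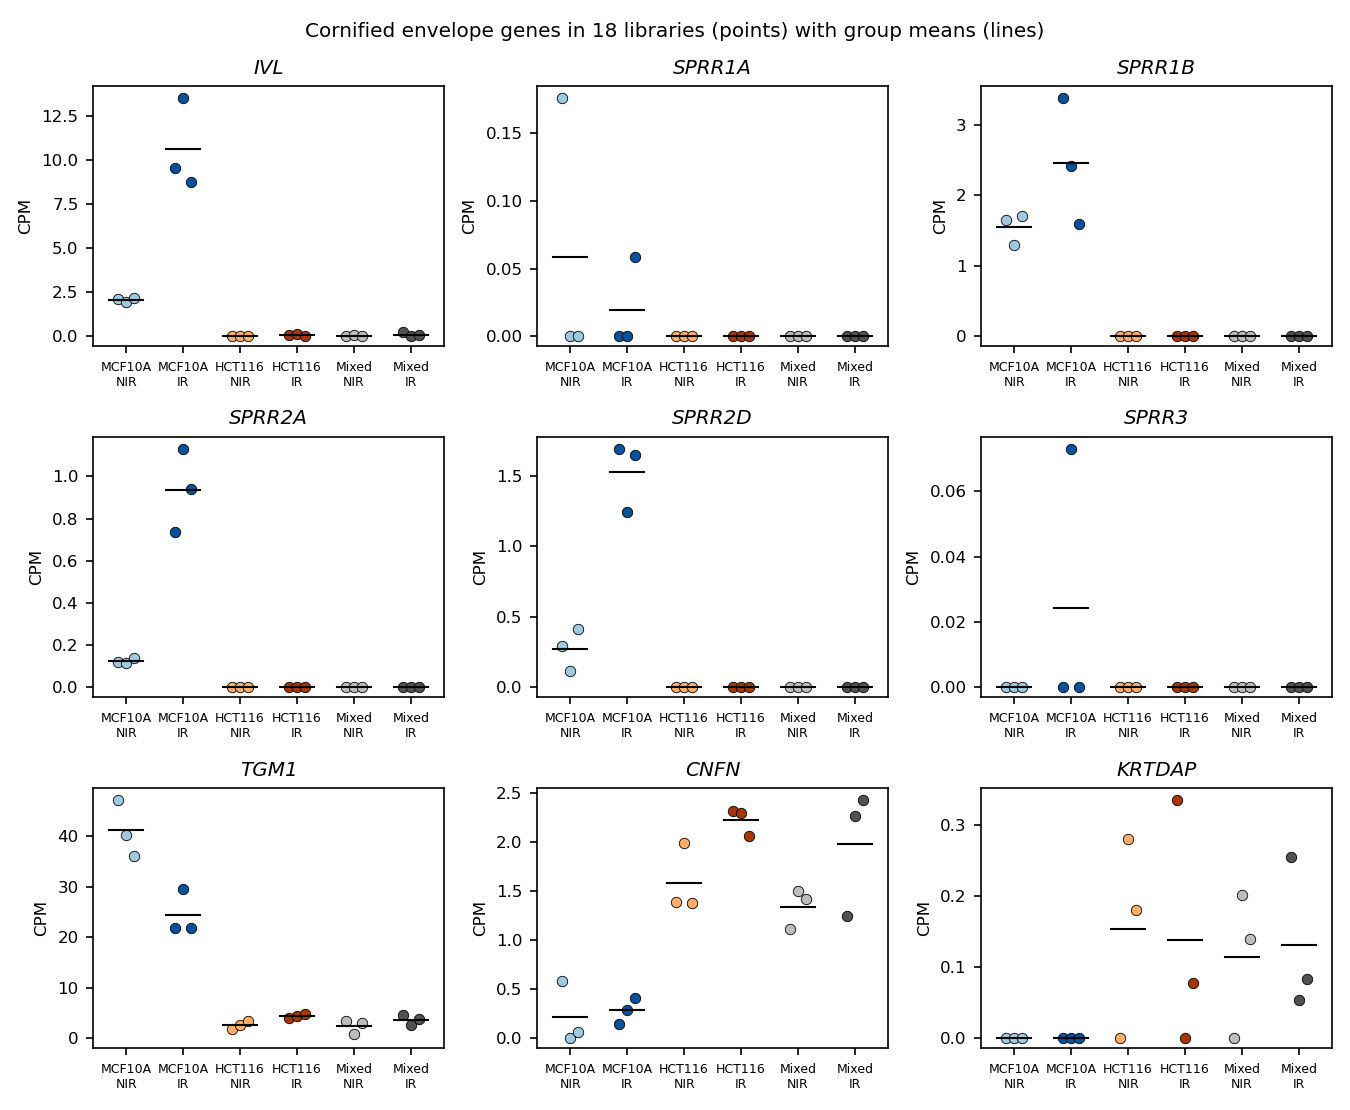
Level of each of the 9 cornified envelope genes in CPM (linear y axes, scaled per gene) in the 18 libraries; points are libraries and lines are means of 3. IVL, the SPRR genes and TGM1 are highest in MCF10A, CNFN is highest in HCT116 and mixed cultures, and KRTDAP has no count in MCF10A.

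Among the 9 genes, TGM1 had counts in all 18 libraries and CNFN in 17. IVL had counts in 11 libraries, KRTDAP in 9, SPRR1B, SPRR2A and SPRR2D in the 6 MCF10A monoculture libraries, SPRR1A in 2 and SPRR3 in 1. Levels of different genes were compared per length, as CPM per kilobase of annotated exon (GENCODE v29, since the annotation used for counting is not known). On that scale TGM1 led in non-irradiated MCF10A at 11.0, followed by SPRR1B at 2.5, IVL at 0.961, SPRR2D at 0.257 and SPRR2A at 0.172. After 10 Gy the order in MCF10A was TGM1 at 6.53, IVL at 4.92, SPRR1B at 3.97, SPRR2D at 1.45 and SPRR2A at 1.32. In HCT116 CNFN led on this scale, at 2.62 without irradiation and 3.7 after it, ahead of TGM1 at 0.704 and 1.19. The annotated exon length of SPRR1A is only 270 bases within a gene of 1734, so no level per length is given for it.

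After irradiation of MCF10A, RNA of 3 precursor proteins was higher and RNA of 1 transglutaminase, TGM1, was lower. RNA of another transglutaminase, TGM2, which is not among the 9 genes, rose from a mean of 58.2 to 189.0 CPM. Of the 9 genes, 5 had enough counts to be tested. IVL, SPRR2A and SPRR2D rose, TGM1 fell, and SPRR1B did not pass the test. SPRR1A, SPRR3, CNFN and KRTDAP had too few counts. A gene passed the filter on low counts when at least as many libraries as a group holds reached a minimum. SPRR2A and SPRR2D did so only because of the irradiated libraries, which favoured a higher call. The 3 called higher and 1 called lower stand beside a background in which 55.4% of the 15154 genes tested were called in either direction, 26.2% higher and 29.2% lower (edgeR quasi-likelihood test, Benjamini-Hochberg adjusted p under 0.05, as throughout). The test across all genes had a median log2 fold change of 0.003. A count of 4 of 5 is thus not far from what genes in general did. Markers of basal mammary cells moved with these genes: 7 of 10 rose and 1 fell, and their summed level went from 12700 to 13400 CPM without irradiation to 20600 to 21100 CPM after it. The number of basal markers that fell was 2 without NIR replicate 3 or IR replicate 2. Of 7 luminal markers 3 rose, with sums of 296 to 340 and 397 to 446 CPM, and 1 rose without IR replicate 2 or in the fit over all 18 libraries. The sums of 10 intestinal markers overlapped, at 9.36 to 11.2 and 8.49 to 10.8 CPM, with CDX2 at 0. The part of these shifts in the result was not tested. In bulk RNA, more cells that express a gene and more RNA per cell cannot be told apart.

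IVL encodes involucrin, the glutamine-rich scaffold on which other precursors are assembled. It stood at 2.12, 1.92 and 2.19 CPM in non-irradiated MCF10A replicates 1, 2 and 3 (72, 68 and 64 counts). After 10 Gy it stood at 9.55, 13.5 and 8.76 CPM (260, 371 and 298 counts). Every irradiated library was above every non-irradiated one, and the spread was wider after irradiation. The means were 2.07 ± 0.14 and 10.6 ± 2.56 CPM (SD, n = 3 each), a log2 fold change of 2.33 (SE 0.184, edgeR adjusted p = 1.3e-11). Over 13 alternative settings, leaving out each replicate included, the log2 fold change lay between 2.11 and 2.46.

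The SPRR2 proteins are short cross-bridging precursors. SPRR2A had 4 counts in each of the 3 non-irradiated MCF10A libraries (0.118, 0.113 and 0.137 CPM). After 10 Gy it had 20, 31 and 32 counts (0.735, 1.13 and 0.941 CPM). The groups did not overlap. The log2 fold change was 2.88 (SE 0.577, edgeR adjusted p = 0.00011), with the reservation that some of its sequence is shared with SPRR2B and SPRR2E. Those had 0 and 2 counts in all in non-irradiated MCF10A and 0 and 10 after irradiation.

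SPRR2D, the next gene along the chromosome, moved likewise from a low level. It stood at 0.294, 0.113 and 0.41 CPM without irradiation (10, 4 and 12 counts). After 10 Gy it stood at 1.69, 1.24 and 1.65 CPM (46, 34 and 56 counts). Replicate 2 was the lowest library in both groups, and the groups did not overlap. The log2 fold change was 2.48 (SE 0.492, edgeR adjusted p = 9.8e-05).

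SPRR1B, a precursor of the SPRR1 subfamily, did not pass the test. Its level was 1.65, 1.3 and 1.71 CPM without irradiation and 3.38, 2.41 and 1.59 CPM after it. Irradiated replicate 3 lay within the non-irradiated range, so the groups overlapped. The log2 fold change was 0.64 (SE 0.306, edgeR adjusted p = 0.08, unadjusted p = 0.047). It passed the threshold with upper-quartile normalization (0.72, adjusted p = 0.048) and without irradiated replicate 3 (0.88, adjusted p = 0.022), and it was 0.34 (adjusted p = 0.44) without irradiated replicate 1. SPRR1A had 6 counts in non-irradiated replicate 1 and 2 in irradiated replicate 3, and SPRR3 had 2 counts in irradiated replicate 2. For neither was a difference detectable at this depth.

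TGM1 encodes the membrane-anchored transglutaminase 1, whose loss causes the skin disorder lamellar ichthyosis. In non-irradiated MCF10A it stood at 47.2, 40.3 and 36.1 CPM, and after 10 Gy at 21.9, 29.5 and 21.8 CPM. All irradiated libraries were below all non-irradiated ones. The means were 41.2 ± 5.63 and 24.4 ± 4.43 CPM (SD, n = 3 each), a log2 fold change of -0.78 (SE 0.102, edgeR adjusted p = 2.1e-07). This direction, opposite to that of IVL, SPRR2A and SPRR2D in the same libraries, held in all 13 alternatives (-0.94 to -0.67). TGM1 had by far the most counts of the 9, 7560 over all libraries.

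**Figure D3:**
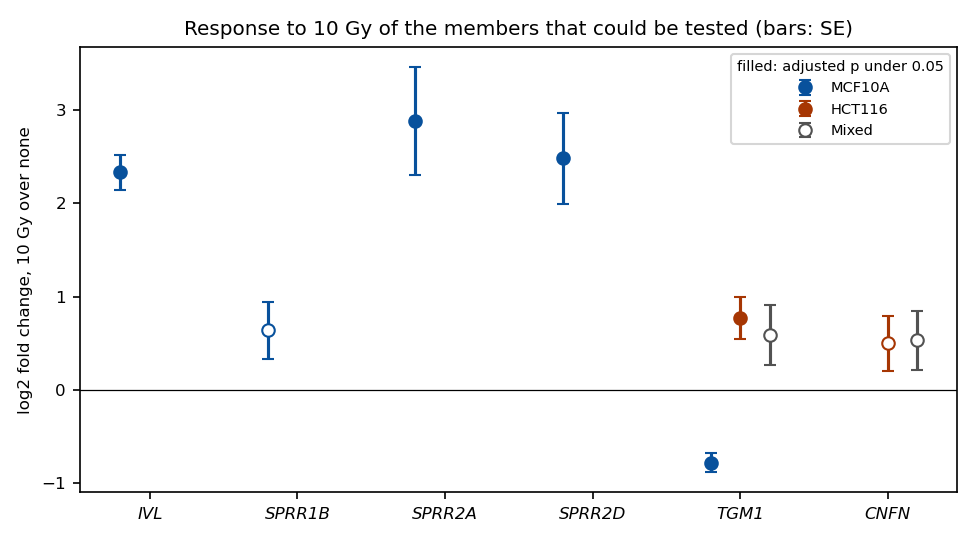
Log2 fold change after 10 Gy over none (y axis) for the members that could be tested, by culture; bars are standard errors and filled points have an adjusted p under 0.05. In MCF10A IVL, SPRR2A and SPRR2D lie above 2 and TGM1 at -0.78; in HCT116 TGM1 lies at 0.77.

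In HCT116 only TGM1 and CNFN could be tested after irradiation, and TGM1 rose. It stood at 1.91, 2.58 and 3.4 CPM without irradiation and at 4.02, 4.51 and 4.78 CPM after 10 Gy. The groups did not overlap. The log2 fold change was 0.77 (SE 0.23, edgeR adjusted p = 0.0074), and over 13 alternatives it lay between 0.57 and 1.0. This 1 higher call of 2 stands beside 52.5% of 16857 genes called in either direction, 25.3% higher and 27.2% lower. Of 9 basal mammary markers tested in HCT116, 7 rose and 1 fell, with sums of 1030 to 1200 CPM before and 1640 to 1860 CPM after. The lower call was lost without NIR replicate 3 or IR replicate 1. Of 6 luminal markers 3 rose, as did 3 of 7 intestinal markers. The part of these markers in the result was not tested.

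CNFN encodes cornifelin, a small cysteine-rich protein that is incorporated into the envelope. In HCT116 it stood at 1.39, 1.99 and 1.38 CPM without irradiation and at 2.32, 2.3 and 2.06 CPM after it. Every irradiated library was above every non-irradiated one, yet the change did not pass the test: the log2 fold change was 0.50 (SE 0.294, edgeR adjusted p = 0.16). KRTDAP, a secreted protein of suprabasal keratinocytes, had 0, 9 and 5 counts in non-irradiated HCT116 and 11, 0 and 2 after irradiation. These ranges overlapped, and no difference was detectable at this depth. IVL had no count in non-irradiated HCT116 and 2, 6 and 0 counts in the irradiated libraries. The 5 SPRR genes had no count in any HCT116 library.

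TGM1 thus moved in opposite directions in the lines, and this difference was tested directly. The response of HCT116 minus that of MCF10A was 1.48 on the log2 scale (SE 0.23, edgeR adjusted p = 1.2e-05), from 1.27 to 1.74 over 19 alternatives. Of the 6 members that entered this test, TGM1 alone was called, against 37.3% of 18179 genes in either direction, 15.4% higher and 21.9% lower. The level of TGM1 stayed higher in MCF10A than in HCT116 in both conditions. For CNFN the difference in response was 0.06 (SE 0.974, adjusted p = 1), and it rested on few MCF10A counts, 20, 0 and 2 without irradiation and 4, 8 and 14 after it. Without the library with 20 counts, MCF10A NIR replicate 1, it was -2.63 (adjusted p = 0.046). For IVL it was 1.91 (SE 1.319, adjusted p = 0.28) with 8 counts in all in irradiated HCT116. For SPRR1B, SPRR2A and SPRR2D, at 0 in HCT116, no difference in response can be estimated.

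Without irradiation the lines differed in 4 of the 4 members tested, against 74.8% of 16568 genes in either direction, 38.7% higher and 36.1% lower. IVL, SPRR1B and TGM1 were lower in HCT116 and CNFN was higher. IVL and SPRR1B passed the filter on low counts only through MCF10A, and CNFN only through HCT116. Their calls were thus favoured by the filter, and 4 of 4 cannot be read as a result about the members. IVL, at 2.07 CPM in MCF10A and at no count in HCT116, was at least 65.2-fold lower in HCT116 against the floor of 3 counts over the group (32.6-fold with counts halved). SPRR1B was at least 48.8-fold lower (24.4-fold with counts halved). SPRR2D and SPRR2A, with too few counts for the test, had bounds of 8.56-fold and 3.85-fold (4.28 and 1.92). TGM1 was 41.2 ± 5.63 CPM in MCF10A and 2.63 ± 0.748 CPM in HCT116, a log2 fold change of -4.19 (SE 0.16, edgeR adjusted p = 7.4e-14).

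CNFN had the opposite order. It stood at 0.588, 0 and 0.0683 CPM in the 3 MCF10A libraries and at 1.39 to 1.99 CPM in HCT116. The groups did not overlap. The log2 fold change was 2.62 (SE 0.707, edgeR adjusted p = 0.0028). With DESeq2 it was 2.67 and not called (adjusted p = 0.076). Without MCF10A replicate 1, which held 20 counts where the other libraries held 0 and 2, it was 5.3 (adjusted p = 4.1e-05). KRTDAP, with no count in MCF10A, was at least 5.06-fold higher in HCT116 (2.53-fold with counts halved), although HCT116 replicate 1 also had no count. Odd counts were common in KRTDAP, in 7 of its 9 libraries with counts, where IVL had 1 odd count in 11 and SPRR1B none in 6.

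After irradiation the same order held in the 6 members tested, of which 5 were lower and 1 higher in HCT116, against 74.9% of 16932 genes called in either direction, 38.1% higher and 36.8% lower. All of them but TGM1 passed the filter on low counts only through the line where they were higher. The number called therefore cannot be read as a result about the members. IVL was 10.6 ± 2.56 CPM in MCF10A and 0.0693 CPM in HCT116, a log2 fold change of -7.20 (SE 0.361, edgeR adjusted p = 9.7e-16). This size rested on 8 HCT116 counts, 6 of them in replicate 2, and without that library it was -8.33. SPRR1B, SPRR2D and SPRR2A, without counts in HCT116, were at least 81.5-, 50.6- and 31.0-fold lower there (40.7-, 25.3- and 15.5-fold with counts halved). TGM1 differed less than without irradiation, with a log2 fold change of -2.69 (SE 0.139, edgeR adjusted p = 1.8e-15). CNFN was 2.70 higher on the log2 scale (SE 0.432, edgeR adjusted p = 3.8e-06), and it was called with every alternative run, DESeq2 included. KRTDAP was at least 4.07-fold higher (2.03-fold with counts halved).

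In mixed cultures the levels of TGM1 and CNFN overlapped those of HCT116 monocultures of the same treatment. IVL and KRTDAP also overlapped, but at no more than 11 counts in a library. The SPRR genes had no count in any of the 6 mixed libraries or in any HCT116 library, so the comparison says nothing about them. IVL had 2 counts in 1 non-irradiated library and 8, 0 and 2 counts in the irradiated ones. TGM1 stood at 3.36, 0.923 and 3.0 CPM without irradiation and at 4.62, 2.62 and 3.86 CPM after it, so the groups overlapped. Non-irradiated replicate 2 was far below the other libraries. Against HCT116 monocultures, the log2 fold change of TGM1 was -0.10 (SE 0.359, adjusted p = 0.93) without irradiation and -0.27 (SE 0.204, adjusted p = 0.5) after it. That of CNFN was -0.22 (SE 0.32, adjusted p = 0.81) and -0.18 (SE 0.28, adjusted p = 0.79). None of these 4 edgeR tests was called, in comparisons that called 2.04% of all genes (0.887% higher and 1.15% lower) without irradiation and 8.56% (5.08% higher and 3.48% lower) after it.

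Between irradiated and non-irradiated mixed cultures no member passed the edgeR test, with 0 of 2 called at an unadjusted p under 0.05 or after adjustment, against 49.4% of 16906 genes called in either direction, 24.0% higher and 25.4% lower. The log2 fold change of TGM1 was 0.59 (SE 0.323, edgeR adjusted p = 0.14) and that of CNFN was 0.53 (SE 0.317, adjusted p = 0.18). TGM1 was called without a filter on low counts (0.58, adjusted p = 0.04) and without non-irradiated replicate 1 (0.87, adjusted p = 0.042). It was 0.19 (adjusted p = 0.57) without non-irradiated replicate 2.

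Across all 6 groups the order of the means was led by MCF10A IR for IVL and by MCF10A NIR for TGM1. For TGM1 it ran from MCF10A NIR through MCF10A IR, each clear of the next group, to HCT116 IR, Mixed IR, HCT116 NIR and Mixed NIR, whose neighbours overlapped. For IVL it ran from MCF10A IR to MCF10A NIR, again clear of each other and of the rest, and the other 4 groups overlapped between 0 and 0.094 CPM. For CNFN the 4 groups of HCT116 and mixed cultures overlapped with their neighbours, between 2.23 CPM (HCT116 IR) and 1.34 CPM (Mixed NIR). Both MCF10A groups lay below them and overlapped each other, at 0.283 and 0.219 CPM.

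The share of MCF10A RNA in the mixed libraries was small, although the cultures were described as equal mixtures. From genes specific to each line it was 0.503%, 0.438% and 0.399% in the non-irradiated mixed libraries and 1.29%, 1.17% and 1.27% in the irradiated ones. It is a share of counted RNA, not of cells. A sum of the monocultures weighted by these shares gave 2.8 CPM of TGM1 without irradiation, where 2.43 ± 1.32 CPM was observed, and 4.68 CPM after it, where 3.7 ± 1.01 CPM was observed (SD, n = 3 each). For CNFN the sums were 1.58 and 2.2 CPM, beside 1.34 ± 0.206 and 1.98 ± 0.642 CPM observed. For IVL after irradiation the sum was 0.20 CPM, of which 0.132 CPM came from MCF10A, beside 0.094 ± 0.118 CPM observed. The sums for SPRR2D (0.0189 CPM) and SPRR2A (0.0116 CPM) after irradiation lay under the floor of that group, 0.0275 CPM, and that for SPRR1B (0.0305 CPM) just above it. These sums depend on how the share was estimated. By non-negative least squares the mean share after irradiation was 3.59%, and the sums for SPRR1B came to 3.31, 3.39 and 2.9 counts in the irradiated mixed libraries, where 0 were observed in each. For IVL that estimate gave 16.7, 17.1 and 15.0 counts, beside 8, 0 and 2 observed.

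Other genes of the cornification programme are described next by 4 lists, whose counts in irradiated MCF10A stand beside 26.2% higher and 29.2% lower of all genes tested. In irradiated MCF10A the list of other envelope precursors and cross-linked proteins had 12 of its 40 names tested, of which 9 rose, 1 fell and 2 were not called, with a median log2 fold change of 1.73. With counts halved 7 rose, and 9 to 11 rose when single libraries were left out. Genes with low counts can pass the filter only because of the irradiated libraries, which favours a higher call. How many of the 12 did so was not counted, so the number that rose cannot be read as a result about the list. PI3, the elastase inhibitor elafin, which transglutaminase anchors to the envelope, went from 19.5 ± 2.2 to 101.0 ± 3.0 CPM (log2 fold change 2.36, SE 0.072, edgeR adjusted p = 2e-20). SCEL, the envelope precursor sciellin, went from 3.99 ± 0.409 to 20.8 ± 0.749 CPM (2.36, SE 0.123, adjusted p = 1.9e-15). Of the list of envelope enzymes, proteases and lipid barrier genes, 10 of 21 were tested, 8 rose and 2 were not called (median 0.86). They included TGM2, tissue transglutaminase, at 58.2 ± 1.65 and 189.0 ± 5.14 CPM (1.68, SE 0.049), and ABCA12, the lipid transporter of lamellar granules, at 48.2 ± 4.56 and 162.0 ± 8.73 CPM (1.72, SE 0.06). TGM2 rose where TGM1 fell.

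Suprabasal keratinocyte proteins and regulators moved less uniformly in irradiated MCF10A. Of 23 suprabasal genes 11 were tested, 7 rose, 2 fell and 2 were not called (median 0.68). KRT6B rose by 2.15 (SE 0.11), with the caution that it is a close copy of KRT6A, and LYPD3, a cell surface protein, rose by 1.41 (SE 0.088). Of 27 regulators 24 were tested, 13 rose, 4 fell and 7 were not called (median 0.30). PRDM1, the repressor BLIMP1, rose by 1.44 (SE 0.116) and CEBPD, a C/EBP transcription factor, fell by 1.00 (SE 0.098), all with edgeR adjusted p of 9.9e-10 or less.

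In irradiated HCT116 the counts of these lists stand beside 25.3% higher and 27.2% lower of all genes tested. Of the other envelope proteins 7 of 40 were tested, 4 rose and 3 were not called (median 1.09). HRNR, the hornerin gene, stood at 0.271 ± 0.205 CPM before and 5.61 ± 0.493 CPM after (a log2 difference of 4.38, SE 0.364, edgeR adjusted p = 6.4e-10, and 5.08 without NIR replicate 2), and CSTA, the envelope precursor cystatin A, rose by 1.09 (SE 0.155). HRNR overlaps FLG-AS1 on the other strand, and the strand setting of the counting is not stated, so its reads are uncertain. HRNR also passed the filter on low counts only because of the irradiated libraries, so the number of its list that rose cannot be read as a result about that list. Of 21 enzyme and lipid genes 11 were tested, 8 rose, 1 fell and 2 were not called (median 0.69). KLK7, a protease of desquamation, went from 26.7 ± 4.89 to 233.0 ± 19.1 CPM (3.13, SE 0.098), and ABCA12 from 4.43 ± 0.174 to 44.9 ± 4.46 CPM (3.34, SE 0.111).

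Of 23 suprabasal genes in HCT116, 14 were tested, 6 rose, 1 fell and 7 were not called (median 0.28). LYPD3 fell by 0.59 (SE 0.176, edgeR adjusted p = 0.0073). GJB2, the connexin 26 gene, rose by 0.26 (SE 0.085, adjusted p = 0.015), a call lost without NIR or IR replicate 1 (adjusted p = 0.097 and 0.12). Of 27 regulators 25 were tested, 5 rose, 9 fell and 11 were not called (median 0.06, beside 0.007 for all genes). KLF4, a transcription factor needed for the skin barrier, fell by 0.93 (SE 0.096) and HES1, a Notch target, fell by 0.90 (SE 0.128).

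**Figure D4:**
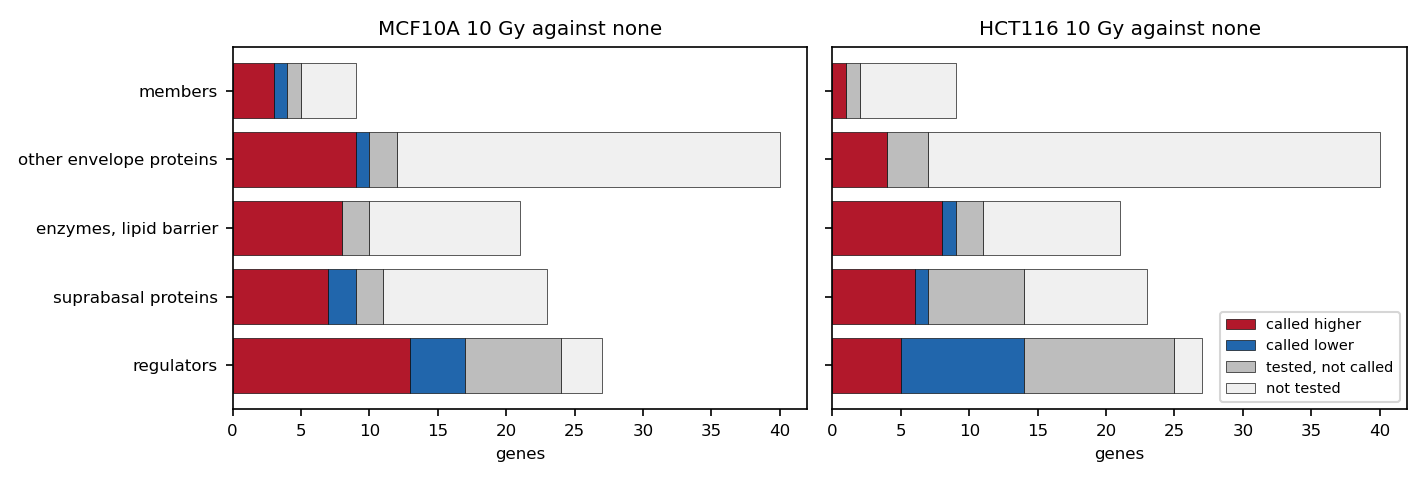
Numbers of genes (x axis) called higher, called lower, tested but not called, and not tested after 10 Gy, for the 9 members and 4 related lists, in MCF10A (left) and HCT116 (right). Most members and other envelope proteins were not tested in HCT116, and regulators were called higher 13 times in MCF10A and 5 times in HCT116.

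Without irradiation the counts of these lists between the lines stand beside 38.7% higher and 36.1% lower in HCT116 of all genes tested. PI3, KLK7, ELOVL4, TP63 and GRHL2, named below, had no count in 1 line and passed the filter on low counts only through the other. Their direction was thus favoured by the filter, and the numbers called cannot be read as a result about the lists. Of the other envelope proteins 9 were tested, 2 were higher and 7 lower in HCT116. PI3, at 19.5 CPM in MCF10A and at no count in HCT116, was at least 612-fold lower there (306-fold with counts halved), and CSTA was lower by 3.75 on the log2 scale (log2 fold change -3.75, SE 0.102). Of the enzyme and lipid genes 13 were tested, 5 higher, 7 lower and 1 not called. KLK7 had no count in MCF10A and was at least 880-fold higher in HCT116 (440-fold), while ELOVL4, a fatty acid elongase, was at least 583-fold lower (292-fold).

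Of the suprabasal genes 12 were tested, 5 higher, 6 lower and 1 not called. KRT6A stood at 1630 ± 70.4 CPM in MCF10A and 0.213 ± 0.198 CPM in HCT116, and KRT17 at 481 ± 35.9 and 0.127 ± 0.134 CPM. Both keratins have close copies. Of the regulators 26 were tested, 14 higher, 11 lower and 1 not called. TP63, the master regulator of stratified epithelium, had no count in non-irradiated HCT116 and was at least 3430-fold lower there (1710-fold with counts halved). GRHL2, a Grainyhead-like factor, was the reverse, with no count in non-irradiated MCF10A and 41.0 ± 0.154 CPM in HCT116, at least 1350-fold higher (675-fold).

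The neighbourhood of IVL and the SPRR genes was examined as a whole after the data had been seen. Between TCHHL1 and LORICRIN (chr1:152084141-153262124) lie 45 protein-coding genes, and 13 of them were at 0 throughout. In MCF10A 11 were tested after 10 Gy and 9 were called higher, IVL, SPRR2A and SPRR2D among them, and 0 lower, beside 26.2% higher and 29.2% lower of all genes tested. SPRR2A, SPRR2D, CRCT1, LCE1B and LCE1E met the filter on low counts only because of the irradiated libraries. Their direction was thus favoured by the filter, and the number called higher cannot be read as a result about the window. FLG, the filaggrin gene, stood at 2.0, 1.83 and 1.2 CPM without irradiation and at 6.54, 6.24 and 7.94 CPM after it (log2 fold change 2.01, edgeR adjusted p = 4.3e-09). CRCT1 (2.94), LCE1B (2.56), LCE3D (1.84), LCE1E (1.62) and HRNR (1.32) were also called higher. SPRR1B (0.64) and TCHH, the trichohyalin gene (0.37, adjusted p = 0.33), were the 2 not called. LORICRIN itself, the most abundant protein of the epidermal envelope, had no count in MCF10A. The LCE genes are close copies of each other. FLG and HRNR overlap FLG-AS1, so their reads in MCF10A are also uncertain without the strand setting.

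In HCT116 4 genes of the window were tested and 3 were called higher, all of them in the filaggrin cluster toward its start, beside 25.3% higher and 27.2% lower of all genes tested. FLG, FLG2 and HRNR passed the filter on low counts only because of the irradiated libraries. Their direction was thus favoured by the filter, and the number called cannot be read as a result about the window. FLG rose by 3.54, to 3.38, 1.79 and 2.37 CPM, and HRNR by 4.38, while FLG2 went from no count in 3 libraries to 0.396, 0.833 and 0.622 CPM. All 3 overlap FLG-AS1, which makes their reads uncertain without the strand setting. LCE3D and CRCT1, like the SPRR genes, had no count in any HCT116 monoculture library. LCE1B had 2 counts in all without irradiation and 39 after it in HCT116, too few for the test.

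**Figure D5:**
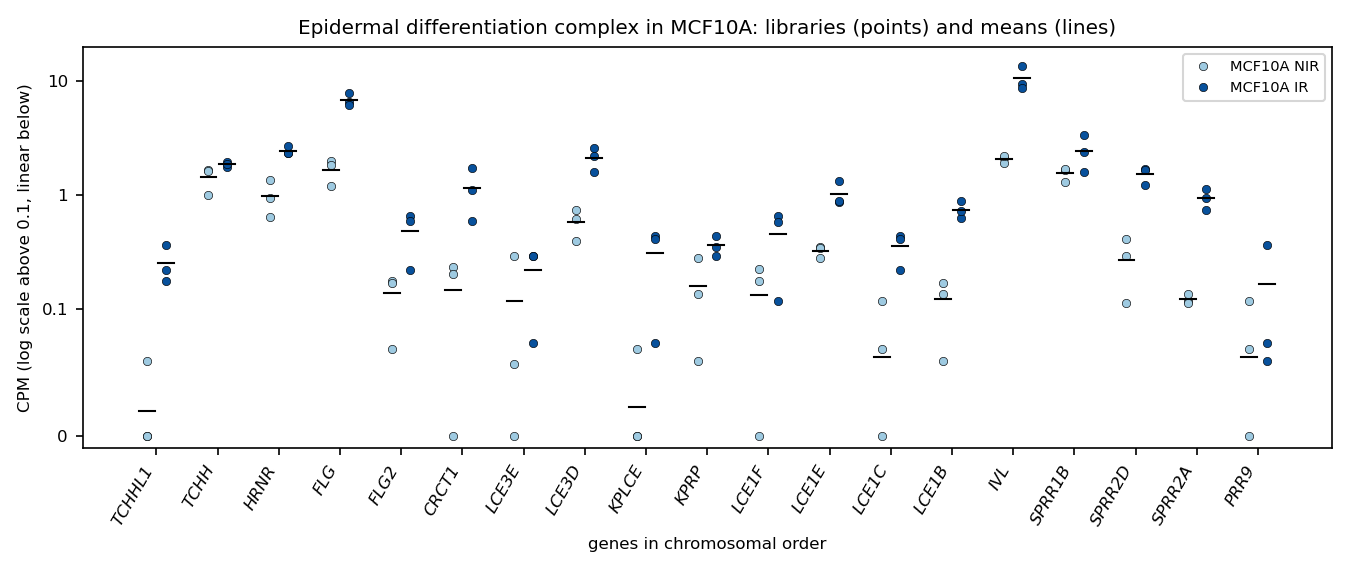
Level in CPM (y axis, logarithmic above 0.1 and linear below) of genes of the epidermal differentiation complex in chromosomal order in MCF10A; light points are the 3 non-irradiated and dark points the 3 irradiated libraries, lines are means. Shown are the 19 genes with at least 20 counts over the 6 MCF10A libraries. The dark points of IVL, SPRR2D, SPRR2A and FLG lie above all their light points, and those of SPRR1B overlap them.

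Genes with the most similar pattern over the 6 group means were found among 12264 other genes, by the root mean square distance between centred log2(CPM + 0.5) values. The nearest to IVL were LINC01127 (0.106), CAMK1G (0.131) and PSG4 (0.152). LINC01127 stood at 1.58 and 9.64 CPM in MCF10A without and with irradiation and at no more than 0.0406 CPM in the other groups. The nearest to TGM1 were ARV1 (0.174), LEF1 (0.193) and CEBPD (0.198). ARV1 fell from 56.4 to 43.9 CPM between the MCF10A means and went from 4.57 to 6.64 CPM between those of HCT116. The nearest to CNFN were ZBTB42 (0.068), ZNF780B (0.076) and LGMN (0.079). For SPRR1B they were RNF152 (0.111), CSRP1 (0.114) and PTK2B (0.117), and for SPRR2D MGAM (0.161), SLC39A13 (0.163) and PHEX (0.176). The added constant shrinks the differences of genes at low levels, SPRR1B and SPRR2D among them. Their listed neighbours do not share their absence from HCT116. In HCT116 monocultures the means of these neighbours lay between 0.681 CPM (MGAM, irradiated) and 50.3 CPM (CSRP1, non-irradiated).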

How the data were processed

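Poly(A)-selected RNA from 18 libraries (Illumina Stranded mRNA Prep, per the labels' protocols) was counted per gene symbol by the authors, who deposited raw counts, 1 table per library, without normalization. The submitters' processing notes name fastp, STAR, featureCounts and GRCh38. Versions, the annotation and the strand setting are not given in the sources used here. Totals were 25.7 to 40.8 M counts per library.

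Each comparison was fitted on the libraries of its groups over the whole table with edgeR 4.0.16 in R 4.3.3 (TMM, filterByExpr, quasi-likelihood test, 2-sided, Benjamini-Hochberg adjustment), and an adjusted p under 0.05 was a call. The response difference was the interaction term of the fit to both lines. The SE of a log2 fold change came from the fold change and its F statistic. CPM are counts times 1e+06 over the library total, with no normalization factor. Where a group had no count, folds were taken against 3 counts over its 3 libraries. MCF10A RNA shares used genes at 20 CPM or more in 1 line and under 1 CPM in the other. The fits were tested on simulated data. The rows of all 18 tables name genes, and 0 columns were left unused.

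The members and gene lists were chosen with earlier results of these data known. Named genes were the 9 members, the 2 largest called changes per list at 5 CPM or more in the higher group, and the 3 nearest genes by likeness for members at 1 CPM or more. Not every gene this rule names is reported here. FLG, FLG2, TCHH, LORICRIN, CRCT1 and the LCE genes fall outside this rule and were chosen after their values were seen. Alternatives were DESeq2 1.42.0, upper-quartile and library-size scaling, no filter, halved counts, a fit over all 18 libraries, the replicate number as a block, and leaving out each replicate. Replicate numbers were treated as names only. Promoters were RefSeq windows of GRCh38.p14.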

Additional observations from a re-analysis of the deposited data

Results flagged for a closer look

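The response to 10 Gy differed between the lines, by the edgeR interaction test, in TGM1 and in 15 of the other named genes, all given as HCT116 minus MCF10A on the log2 scale. For TGM1 the difference was 1.48 (SE 0.23, edgeR adjusted p = 1.2e-05). Its level was higher in 3 of 3 irradiated HCT116 libraries than in any HCT116 control. In MCF10A it was lower in 3 of 3 irradiated libraries than in any MCF10A control. Among envelope precursors the difference was 2.98 for HRNR and 0.51 for CSTA. Among enzyme and lipid genes it was 1.54 for ABCA12 and -1.02 for TGM2. Among suprabasal genes it was -2.07 for LYPD3 and -0.51 for GJB2. Among regulators it was -1.92 for KLF4, -0.87 for PRDM1, -0.69 for HES1 and 1.35 for CEBPD. Of 10 basal mammary markers tested 5 were called higher and 3 lower in this comparison, with COL17A1 (1.62) and S100A2 (1.14) among the higher. For luminal markers the difference was 0.94 for KRT8, 1.6 for KRT18 and -0.69 for FOXA1. Their adjusted p-values lay between 5.6e-13 (KRT18) and 0.038 (FOXA1), and 37.3% of all genes tested were called in this comparison. Leaving out single libraries gave -0.59 to -0.26 for GJB2, whose call was lost without MCF10A IR replicate 2 (-0.26, adjusted p = 0.13) or HCT116 IR replicate 2 (-0.33, adjusted p = 0.084). It gave -0.99 to -0.55 for PRDM1, whose call was lost without the same libraries (-0.65, adjusted p = 0.051, and -0.55, adjusted p = 0.058). The FOXA1 call was lost without any 1 of 8 libraries, MCF10A NIR replicates 2 and 3, MCF10A IR replicates 1 to 3, HCT116 NIR replicate 1 and HCT116 IR replicates 2 and 3 (adjusted p up to 0.17). It was also lost without a filter, in the fit over all 18 libraries (adjusted p = 0.13 in both) and with library size alone (adjusted p = 0.056). The HRNR difference was 3.67 without HCT116 NIR replicate 2. The lines were grown in different media, which cannot be told apart from the lines here.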

How the results depend on the processing

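The MCF10A calls of IVL, SPRR2A, SPRR2D and TGM1, the HCT116 call of TGM1 and the TGM1 response difference kept their direction and stayed under an adjusted p of 0.05 in every alternative run. Counts of members called moved as follows. In irradiated MCF10A the number higher went from 3 to 4 with upper-quartile factors and without IR replicate 3. In irradiated HCT116 the number higher went from 1 to 2 in the fit over all 18 libraries. In irradiated mixed cultures it went from 0 to 1 without a filter, and also with the replicate number as a block; leaving out replicates gave 0 to 1. Between the non-irradiated lines the number higher went from 1 to 0 with DESeq2 and to 2 without a filter, and the number lower from 3 to 5 without a filter and in the fit over all 18 libraries. The number of members with a lower response in HCT116 was 0 to 1 when replicates were left out. The mean MCF10A RNA share was 0.447% without and 1.24% with irradiation. It became 0.345% and 1.07% with a minimum of 50 CPM for specific genes, and 0.528% and 3.59% by non-negative least squares, which took the IVL sum after irradiation to 0.448 CPM. The causes were not tested.

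Reversed signs occurred in differences that were not called. The CNFN response difference became -0.07 with the replicate block and lay between -2.63 and 0.66 when replicates were left out (-0.13, -0.03 and -0.02 among them). That of PI3 (0.1) became -0.62 with DESeq2 and -0.67 with counts halved, and lay between -2.43 (without HCT116 IR replicate 3) and 0.82 when replicates were left out. Between mixed and HCT116 cultures, leaving out replicates gave -0.4 to 0.29 for TGM1 without irradiation (0.13 without HCT116 NIR replicate 3, 0.29 without mixed NIR replicate 2) and -0.34 to 0.06 for CNFN after it (0.06 without mixed IR replicate 1). No pairing by replicate number was seen across the groups as a whole. Residuals of same-numbered libraries correlated by -0.146 to 0.196, in 0 of 15 pairs of groups were all 3 over 0.1, and 3 of 18 libraries correlated best with their own number. The highest values were between HCT116 and mixed cultures, with 0.124, -0.005 and 0.196 without irradiation and 0.16, 0.057 and 0.047 after it. Whether same-numbered libraries of these cultures shared a source of variation was not tested. With the block, TGM1 in irradiated mixed cultures was 0.69 (adjusted p = 0.026), no other member's call changed, and calls over all genes between mixed and HCT116 cultures went from 146 higher and 189 lower to 319 and 397 without irradiation and from 871 and 596 to 1263 and 957 after it. Upper-quartile scaling moved the share of calls that were higher from 47.4% to 57.5% in irradiated MCF10A and from 51.8% to 62.4% between non-irradiated lines, where it moved the median of all genes from 0.05 to 0.25. Library size alone moved it from 50.9% to 62.4% between irradiated lines. Depth limited SPRR1A, SPRR3 and KRTDAP, at 8, 2 and 53 counts over all libraries.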
